A study of Mus musculus with 12 samples.

Results

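The genes described here were 3 receptors and 5 further components or targets of the Notch pathway in mouse thymocytes: Notch1, Notch2, Notch3, the DNA-binding factor gene Rbpj, and the targets Hes1, Dtx1, Nrarp and Ptcra. They were taken by gene symbol, as genes of known function in the pathway, and are 8 of the 23234 genes listed in the expression table. RNA-seq was performed on sorted immature CD4+CD8+ (DP) thymocytes, gated as CD24 high and TCRβ low to hold cells before positive selection, and the question was how mutation of Bcl11b, a zinc-finger transcription factor of the T lineage, altered their transcripts. The 12 libraries, all of strain C57BL/6, were 5 from wild-type newborns (WT 1 to 5), 3 from newborns homozygous for the Bcl11bm allele (HM 1 to 3), and 4 from mice with Bcl11bfl/fl and a Cd4-Cre transgene (cKO 1 to 4), whose age the labels do not give. The Bcl11bm allele arose from a frameshift and yields a truncated protein without the last zinc finger, it is present in every cell from the germ line on, and its homozygotes die as neonates. The Cd4-Cre transgene acts late, as thymocytes become DP, so Bcl11b was intact in the earlier stages of those mice. Genotypes were taken from the sample titles, because the description fields of the WT and cKO libraries contradict them.

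Notch proteins are transmembrane receptors that ligands on neighbouring cells bring to cleavage by ADAM proteases and then by γ-secretase, after which the intracellular domain enters the nucleus, joins RBPJ and Mastermind coactivators on DNA, and turns on target genes. In the thymus NOTCH1, engaged by Delta-like ligand on the epithelium, commits progenitors to the T lineage and carries them through the early CD4-CD8- (DN) stages, where Hes1, Dtx1, Nrarp, Ptcra and Il2ra are among the genes it drives. Signalling is normally shut down as cells pass the pre-TCR checkpoint and become DP. HES1 is a repressor of the basic helix-loop-helix class, DTX1 an E3 ubiquitin ligase that acts on Notch, NRARP a small feedback inhibitor of the Notch complex, and Ptcra encodes pre-Tα, the invariant partner of the TCRβ chain in the pre-TCR.

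The upstream sequences of the 3 members that the comparisons turn on most, other than Hes1, are shown to give their start-site context. The RefSeq promoter table (GRCm38.p6) holds windows from 250 bases before to 50 bases after the start for 7 of the 8 members, in 8 windows. Hes1 has no entry. The windows are chr2:26503773-26504072 for Notch1, chr5:120711620-120711919 for Dtx1 and chr17:46763663-46763962 for Ptcra, each on the minus strand and printed 5′ to 3′ along the gene. Capitals mark TGGGAA, the core of the sequence that RBPJ recognises, which was searched on both strands (TTCCCA on the other).
Notch1: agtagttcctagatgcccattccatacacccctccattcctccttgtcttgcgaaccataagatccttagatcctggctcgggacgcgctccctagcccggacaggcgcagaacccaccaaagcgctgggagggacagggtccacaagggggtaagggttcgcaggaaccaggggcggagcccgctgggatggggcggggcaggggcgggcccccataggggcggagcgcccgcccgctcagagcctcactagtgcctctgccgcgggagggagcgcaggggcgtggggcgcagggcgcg
Dtx1: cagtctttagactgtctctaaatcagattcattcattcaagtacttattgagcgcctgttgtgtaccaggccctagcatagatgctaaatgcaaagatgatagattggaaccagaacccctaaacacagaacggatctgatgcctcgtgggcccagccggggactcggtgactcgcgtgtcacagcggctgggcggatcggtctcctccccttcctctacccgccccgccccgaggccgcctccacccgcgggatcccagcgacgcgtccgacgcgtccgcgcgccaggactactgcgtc
Ptcra: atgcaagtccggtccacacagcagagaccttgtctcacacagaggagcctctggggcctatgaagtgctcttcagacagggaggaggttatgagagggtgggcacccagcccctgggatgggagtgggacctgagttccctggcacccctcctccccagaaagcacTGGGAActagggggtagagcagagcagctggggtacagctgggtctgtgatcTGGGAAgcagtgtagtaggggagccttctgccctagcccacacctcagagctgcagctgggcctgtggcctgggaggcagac
TGGGAA occurred 2 times in the Ptcra window, 84 and 32 bases before the start, and it occurred in the Rbpj windows at 2 sites, 149 and 65 bases before 1 start, the second of which lies 205 bases before the other start in the overlapping window. The windows of Notch1, Notch2, Notch3, Dtx1 and Nrarp did not contain these letters. CAGCTG, an E-box that reads the same on both strands and is bound by E proteins, occurred 3 times in the Ptcra window and 1 time in that of Nrarp, and no match of the 2 motifs overlapped. Of all 32851 windows in the table, 25.6% held TGGGAA and 16.3% held CAGCTG, so either match is common and is given as a description of the sequence.

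Levels are in FPKM (fragments per kilobase of transcript scaled by the mapped fragments of each library), which are per length and can be set side by side between genes. The deposit holds no read numbers. The steps between low values put library sizes near 3930000 to 6930000 fragments for wild-type, 2740000 to 4230000 for Bcl11bm/m and 10820000 to 45310000 for the Cd4-Cre group, so low genes were measured most closely in the last group. Bcl11b itself (NCBIM37, chr12:109148613-109241812) was at 132 to 292 FPKM in wild-type, 430 to 482 in Bcl11bm/m and 115 to 140 in Bcl11bfl/fl:Cd4-Cre. A gene-level value cannot separate the mutated part of the gene from the rest, so it does not test either allele. The DP markers Cd4, Cd8a, Cd8b1 and Rag1 were abundant in every group, with group means from 299 to 1661 FPKM. Their levels were not equal between groups. Cd4 averaged 598 FPKM in wild-type and 299 in Bcl11bm/m, and Cd8b1 averaged 1661 and 845. Differences are of log2(FPKM + 1), which understates changes of low genes, and were called at an adjusted p under 0.05 by limma with Benjamini-Hochberg adjustment over 10780 genes. Nothing in the labels says that libraries came from separate animals, so p-values measure the spread between these libraries. In such bulk samples fewer cells of a type and less RNA per cell cannot be told apart.

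Among the 8 members, Bcl11bm/m thymocytes had higher Notch1, Hes1 and Dtx1, and lower Ptcra, than wild-type thymocytes. Thus 3 members were called higher and 1 lower, where 9.92% of all tested genes were called higher and 7.39% lower (17.3% in either direction). Bcl11bfl/fl:Cd4-Cre thymocytes had higher Hes1 and Dtx1, with 2 members called higher and none lower, where 4.65% of all genes were called higher and 9.86% lower (14.5% in either direction). The median difference was -0.05 over the members and -0.02 over all tested genes for Bcl11bm/m, and 0.37 against -0.09 for Bcl11bfl/fl:Cd4-Cre. Both comparisons use the same wild-type libraries. Hes1 was in the tested set only because of its level in the mutant libraries, so its difference was bound to be large, whereas Notch1, Dtx1 and Ptcra were above 1 FPKM on average in wild-type as well.

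**Figure D1:**
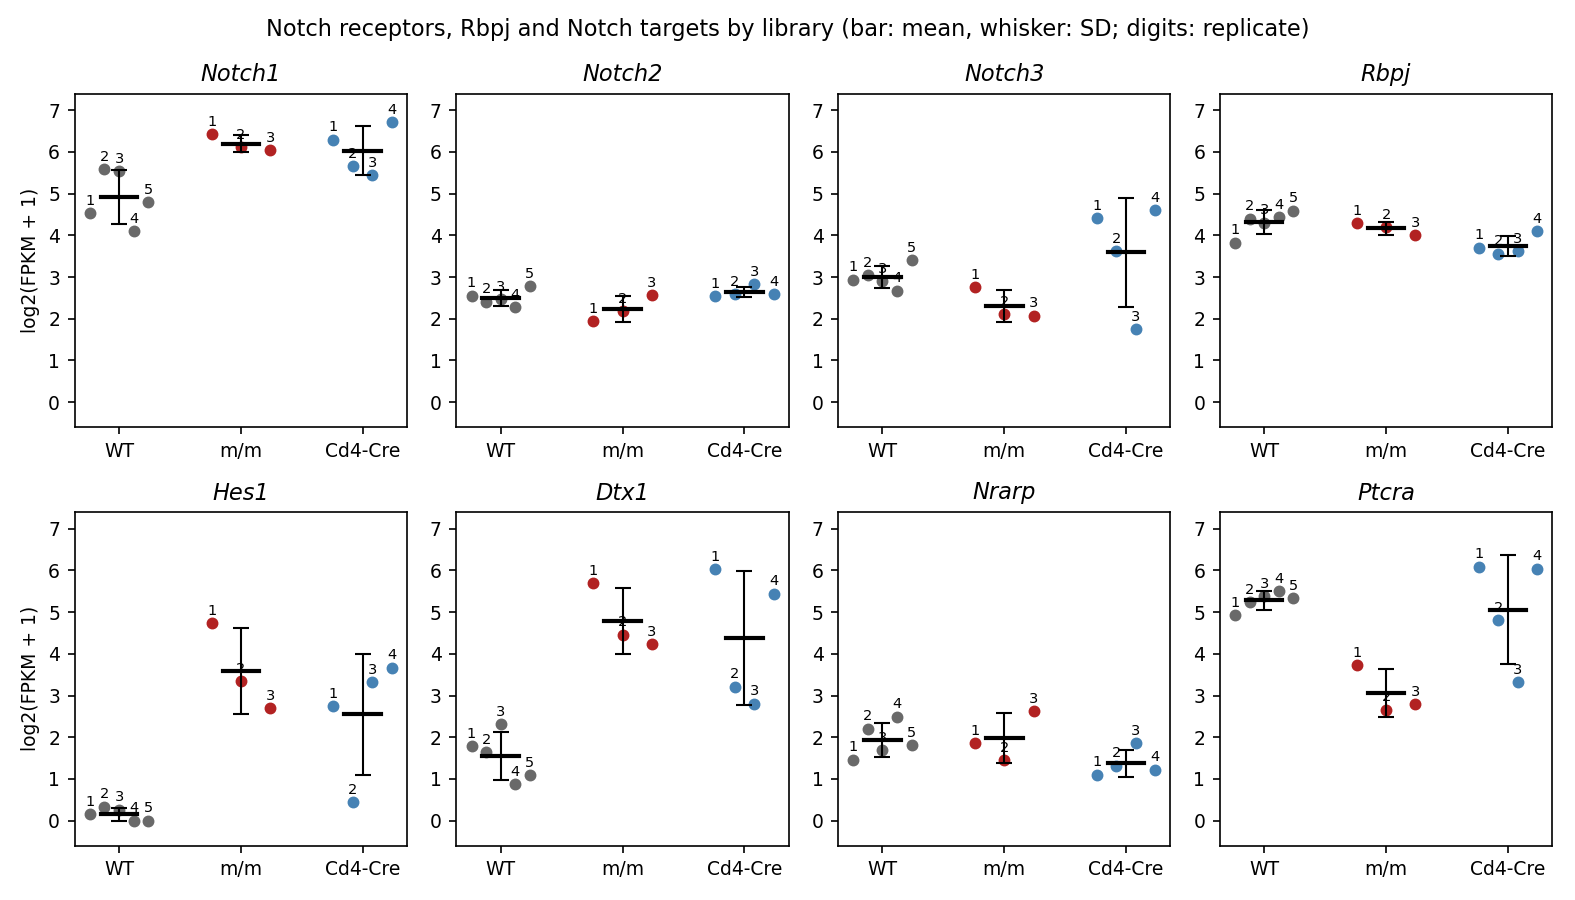
Level of each of the 8 genes in every library, as log2(FPKM + 1) on the vertical axis, for wild-type (WT), Bcl11bm/m (m/m) and Bcl11bfl/fl:Cd4-Cre (Cd4-Cre) thymocytes, with digits giving the replicate, horizontal bars the mean and whiskers the SD. Hes1 and Dtx1 lie higher in both mutants than in every wild-type library, Ptcra lies lower in all 3 m/m libraries, and the 4 Cd4-Cre libraries spread from 8.97 to 67.0 FPKM for Ptcra.

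Of the receptors, Notch1 (NCBIM37, chr2:26313423-26372183, minus strand) was the most abundant in every library. It was at 22.1, 46.9, 45.5, 16.2 and 26.8 FPKM in WT 1 to 5, at 84.8, 68.0 and 64.8 FPKM in HM 1 to 3, and at 77.4, 49.7, 42.3 and 104 FPKM in cKO 1 to 4. All 3 Bcl11bm/m libraries exceeded every wild-type library, while cKO 3 fell below WT 2 and WT 3. The mean rose from 31.5 ± 14.0 (SD, n = 5) in wild-type to 72.5 ± 10.7 (n = 3) in Bcl11bm/m, a log2 difference of 1.28 ± 0.34 (SE) with a limma adjusted p of 0.0354. Among alternatives other than the replicate block, this call was lost on leaving out any of WT 1, WT 5, HM 1, HM 2 or HM 3 (adjusted p 0.0564 to 0.12) and with no filter on low values (0.0731). In Bcl11bfl/fl:Cd4-Cre the mean was 68.4 ± 28.3 (n = 4), and the difference of 1.12 ± 0.36 did not pass the threshold (adjusted p = 0.0618). It passed under median-ratio scaling (0.0466), quantile normalization (0.0443) and in 1 fit of all 3 groups (0.0344).

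Notch2 (chr3:97817461-97954290) and Notch3 (chr17:32257765-32303825), the receptors less abundant than Notch1, showed no called difference in any comparison. Notch2 was at 4.88, 4.31, 4.52, 3.86 and 5.90 FPKM in WT 1 to 5, at 2.84, 3.53 and 4.90 in HM 1 to 3, and at 4.84, 5.04, 6.11 and 5.01 in cKO 1 to 4. Its groups overlapped throughout, with differences from wild-type of -0.27 ± 0.18 (adjusted p = 0.351) in Bcl11bm/m and 0.14 ± 0.13 (0.514) in Bcl11bfl/fl:Cd4-Cre. Notch3, itself a Notch target in early thymocytes, was at 6.66, 7.28, 6.50, 5.39 and 9.62 FPKM in WT 1 to 5 and at 5.76, 3.32 and 3.20 in HM 1 to 3. Only HM 1 lay inside the wild-type range, and the difference of -0.68 ± 0.22 had an adjusted p of 0.0672, with 0.00414 to 0.385 over 15 alternatives, of which 3 passed. In cKO 1 to 4 Notch3 was at 20.2, 11.3, 2.35 and 23.2 FPKM. Of these, cKO 1, cKO 2 and cKO 4 lay above all wild-type libraries and cKO 3 lay below them, so that the difference was 0.59 ± 0.50 (adjusted p = 0.455) with cKO 3 and 1.21 ± 0.24 (0.025) without it.

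The makeup of the receptor pool, as the part of the summed FPKM of the 3 receptors that was Notch1, was 63.3 to 80.5% in wild-type (median 65.7%), 88.9 to 90.9% in Bcl11bm/m and 75.3 to 83.3% in Bcl11bfl/fl:Cd4-Cre. The Bcl11bm/m libraries thus lay above all others in this share. Against wild-type they had more Notch1, and Notch3 below all wild-type libraries but WT 4 in HM 1 and below all of them in HM 2 and HM 3. The wild-type libraries themselves fell apart, with WT 2 and WT 3 at 80.2 and 80.5% and the others at 63.3 to 65.7%.

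Rbpj (chr5:53947018-54048684), whose protein carries Notch to DNA and represses the same sites in its absence, was at 13.2, 20.1, 18.8, 20.6 and 23.1 FPKM in WT 1 to 5. It was at 18.6, 17.4 and 15.0 FPKM in HM 1 to 3, all within the wild-type range, and the difference was -0.15 ± 0.18 (adjusted p = 0.631). In cKO 1 to 4 it was at 12.1, 10.8, 11.2 and 16.1 FPKM. Of these, cKO 1, cKO 2 and cKO 3 lay below all wild-type libraries, but the difference of -0.57 ± 0.17 did not pass the threshold (adjusted p = 0.0539). It passed in 7 of 16 alternative settings, with adjusted p from 0.00648 to 0.141 over all 16. The factor was thus expressed in every library at levels whose group means lay between 12.5 and 19.1 FPKM.

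Hes1 (chr16:30064470-30067882) was nearly absent from wild-type thymocytes and present in both mutants. It was at 0.115, 0.259, 0.201, 0 and 0 FPKM in WT 1 to 5, which corresponds to about 4 fragments over the 5 libraries, each at or below a floor of 3 fragments. A listed 0 can be a failed estimate as well as an absence of fragments. It was at 25.5, 9.13 and 5.49 FPKM in HM 1 to 3, about 167 fragments in all, and at 5.73, 0.364, 8.93 and 11.7 FPKM in cKO 1 to 4, about 730 fragments. Every mutant library was above every wild-type library, but cKO 2 by less than the counting error. Its 5 estimated fragments give an exact Poisson 95% interval of 0.118 to 0.85 FPKM, which overlaps that of WT 2 (0.03 to 0.91 FPKM), both for counting error only. No fold is given against so few fragments. The fitted difference, which depends on the pseudocount, was 3.44 ± 0.39 in Bcl11bm/m (limma adjusted p = 7.82e-04) and 2.39 ± 0.55 in Bcl11bfl/fl:Cd4-Cre (adjusted p = 0.0187). The first was called in all 15 alternatives other than the replicate block, and the second was lost without cKO 1 (adjusted p = 0.0644), cKO 3 (0.0602) or cKO 4 (0.0569). Since Hes1 passed the filter through its mutant levels, its calls were close to fixed. With no filter on low values the adjusted p was 0.00353 in Bcl11bm/m and 0.0463 in Bcl11bfl/fl:Cd4-Cre.

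Dtx1 (chr5:121130211-121161936, minus strand) was low but measured in wild-type and far higher in both mutants. It was at 2.45, 2.12, 3.99, 0.833 and 1.12 FPKM in WT 1 to 5, at 50.9, 21.0 and 17.7 FPKM in HM 1 to 3, and at 64.5, 8.26, 6.01 and 42.4 FPKM in cKO 1 to 4. All mutant libraries exceeded all wild-type libraries, and the Bcl11bfl/fl:Cd4-Cre libraries formed a high pair, cKO 1 and cKO 4, and a low pair, cKO 2 and cKO 3. The difference from wild-type (mean 2.1 ± 1.25 FPKM, SD, n = 5) was 3.25 ± 0.42 in Bcl11bm/m (mean 29.9 ± 18.3, n = 3, limma adjusted p = 0.00141). It was 2.83 ± 0.64 in Bcl11bfl/fl:Cd4-Cre (mean 30.3 ± 28.2, n = 4, adjusted p = 0.0186). The Bcl11bm/m call held in all 15 alternatives other than the replicate block, and the other call was lost without cKO 1 (adjusted p = 0.0549) or cKO 4 (0.0596), with differences of 2.28 and 2.48.

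Nrarp (chr2:25036278-25038850), the feedback inhibitor, was not called in any comparison in the fit as designed. It was at 1.76, 3.61, 2.22, 4.63 and 2.49 FPKM in WT 1 to 5, at 2.62, 1.74 and 5.18 in HM 1 to 3, and at 1.14, 1.50, 2.61 and 1.33 in cKO 1 to 4. The Bcl11bm/m libraries spread across and beyond the wild-type range (difference 0.05 ± 0.31, 95% interval -0.67 to 0.76, adjusted p = 0.941). In the Bcl11bfl/fl:Cd4-Cre group 3 libraries lay below all wild-type libraries and cKO 3 lay inside their range, with a difference of -0.56 ± 0.24 (adjusted p = 0.144). With library quality weights it was called lower there (-0.67, 0.0277).

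Ptcra (chr17:46893176-46900542, minus strand) was the most abundant member in wild-type on average, and it fell in Bcl11bm/m and was not called in Bcl11bfl/fl:Cd4-Cre. It was at 29.3, 36.8, 40.8, 44.5 and 39.5 FPKM in WT 1 to 5, and at 12.2, 5.34 and 5.90 FPKM in HM 1 to 3. No library of the groups overlapped. The difference was -2.22 ± 0.25 (mean 7.81 ± 3.80 against 38.2 ± 5.68 FPKM, limma adjusted p = 7.58e-04), and it was called in all 15 alternatives other than the replicate block. In cKO 1 to 4 Ptcra was at 67.0, 27.0, 8.97 and 64.7 FPKM. cKO 1 and cKO 4 lay above all wild-type libraries, cKO 2 and cKO 3 below them, and the difference of -0.22 ± 0.49 (adjusted p = 0.803) had a 95% interval from -1.31 to 0.88. Without cKO 3 its sign turned, to 0.36 (adjusted p = 0.481).

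**Figure D2:**
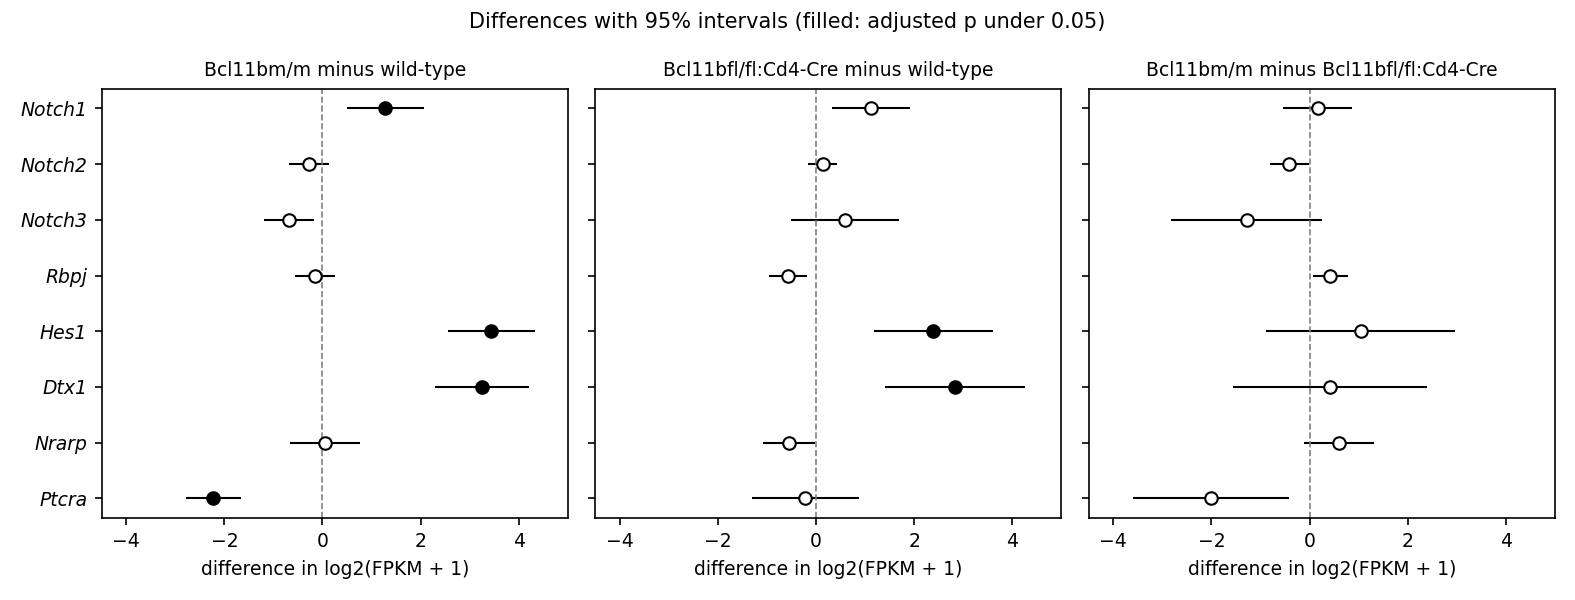
Differences in log2(FPKM + 1) of the 8 genes on the horizontal axis for the 3 comparisons, with points for the fitted difference, lines for its 95% interval and filled points for an adjusted p under 0.05. Filled points number 4 for Bcl11bm/m against wild-type, 2 for Bcl11bfl/fl:Cd4-Cre against wild-type and none between the mutants.

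Set directly against each other, the mutants differed in no member at an adjusted p under 0.05, where 10.2% of all tested genes were called by limma in either direction. The unadjusted value of limma was under 0.05 for 3 members, namely Notch2, Rbpj and Ptcra. In size, Ptcra had the largest difference of the 8, at -2.01 ± 0.68 for Bcl11bm/m minus Bcl11bfl/fl:Cd4-Cre (95% interval -3.59 to -0.42, adjusted p = 0.105). HM 1 lay above cKO 3 and the groups overlapped for that reason alone. Without cKO 3 the Ptcra difference was -2.59 (adjusted p = 0.0195) and that of Notch3 was -1.89 (0.0186), against -1.28 ± 0.66 (0.245) with it. Notch1 (0.16 ± 0.30, interval -0.55 to 0.88), Hes1 (1.04 ± 0.82, -0.88 to 2.96) and Dtx1 (0.42 ± 0.84, -1.55 to 2.39) had intervals wide enough to hold differences in either direction. Age was newborn for Bcl11bm/m and is not given for Bcl11bfl/fl:Cd4-Cre, so age and genotype cannot be told apart in this comparison or in that of Bcl11bfl/fl:Cd4-Cre with wild-type.

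The targets did not keep one ratio to each other or to their receptor. Ptcra was 10.2 to 53.4 times Dtx1 in wild-type libraries, 1.04 to 3.26 times in Bcl11bfl/fl:Cd4-Cre and 0.24 to 0.333 times in Bcl11bm/m, so the ranges of the groups did not overlap and Dtx1 exceeded Ptcra only in Bcl11bm/m. Dtx1 per Notch1 was 0.0419 to 0.111 in wild-type, 0.274 to 0.6 in Bcl11bm/m and 0.142 to 0.834 in Bcl11bfl/fl:Cd4-Cre, so that Dtx1 was higher relative to Notch1 in every mutant library than in any wild-type library. These ratios combine values given above and were not tested.

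**Figure D3:**
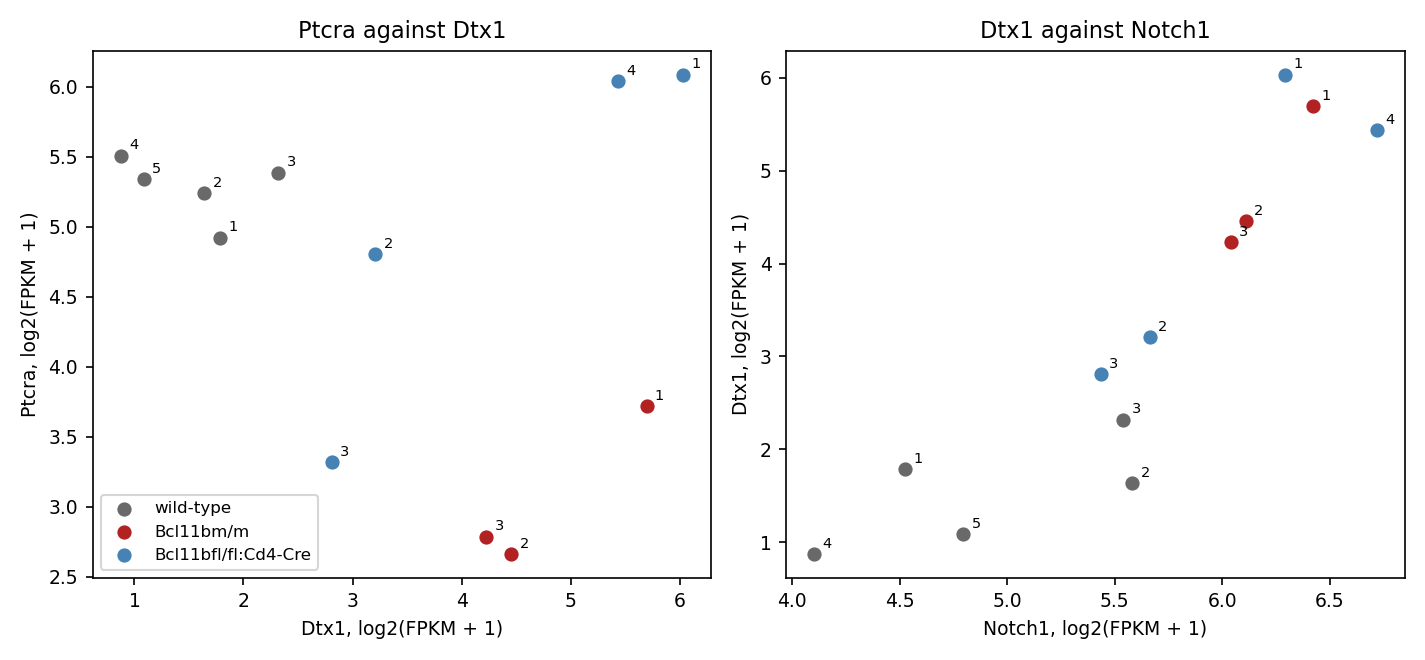
Each point is a library, labelled by its replicate, on log2(FPKM + 1) axes, with Ptcra against Dtx1 on the left and Dtx1 against Notch1 on the right. On the left the wild-type libraries lie at high Ptcra and low Dtx1, Bcl11bm/m at low Ptcra and high Dtx1, and Bcl11bfl/fl:Cd4-Cre runs from cKO 3 (6.01 FPKM Dtx1, 8.97 FPKM Ptcra) to cKO 1 (64.5 and 67.0 FPKM).

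Within the Bcl11bfl/fl:Cd4-Cre group, cKO 1 and cKO 4 were the highest pair of libraries for 5 of the 8 members, Notch1, Notch3, Rbpj, Dtx1 and Ptcra. For Notch2 and Nrarp the highest was cKO 3, and for Hes1 cKO 4 was followed by cKO 3. The same pair was highest for Sox13, a factor of γδ and early T cells, at 13.9, 1.15, 0.478 and 3.29 FPKM in cKO 1 to 4, against at most 0.452 in any wild-type library. It was also highest for Blk, a kinase of B cells and some γδ T cells, at 9.91, 0.88, 0.526 and 3.40 FPKM, against at most 0.145 in wild-type. Maf, on the same γδ T cell list, was at 12.4, 1.24, 0.551 and 3.82 FPKM, and Cd163l1 at 13.4, 0.42, 1.38 and 2.15 FPKM. Il23r was listed at 0 in all 4 libraries and Zbtb16 was at most 0.917 FPKM. The 5 listed γδ markers that are described here summed to 0.355 to 0.931 FPKM in wild-type, 38.5 to 63.1 in Bcl11bm/m, and 36.6, 2.60, 2.58 and 10.1 in cKO 1 to 4. Of 3 tested, Cd163l1 and Maf were called higher in Bcl11bm/m, where Cd163l1 reached 36.3 to 60.8 FPKM, and Blk in Bcl11bfl/fl:Cd4-Cre, against 9.92% and 4.65% of all genes. All 3 were under 1 FPKM on average in wild-type and entered the test through the mutant libraries, so their calls were close to fixed. The part of such cells in the results was not tested.

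Of 64 other genes assigned to the Notch pathway, 52 passed the filter. In Bcl11bm/m 12 were called higher and 3 lower (28.8%, against 17.3% of all genes, with a median of 0.11), and in Bcl11bfl/fl:Cd4-Cre 6 higher and 3 lower (17.3% against 14.5%, median 0.10). Of the 52, Heyl and Il7r were under 1 FPKM in wild-type and entered through the mutants. Between the mutants 8 were called (15.4% against 10.2%, median 0.06).

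Ligands were scarce in these cells. Dll1, Dll4 and Jag1 had means of at most 0.064 FPKM in every group, and Dll3 had means of 0.787, 0.881 and 1.06 FPKM in wild-type, Bcl11bm/m and Bcl11bfl/fl:Cd4-Cre. Jag2, the only ligand tested, was at 1.32 to 3.15 FPKM in wild-type, 4.74 to 6.98 in Bcl11bm/m and 2.76 to 4.70 in Bcl11bfl/fl:Cd4-Cre. It rose in Bcl11bm/m (1.28 ± 0.21, adjusted p = 0.00499) and was 0.65 ± 0.21 higher in Bcl11bfl/fl:Cd4-Cre (adjusted p = 0.0633).

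Of 11 tested genes that modify or cleave the receptor, 2 rose in each mutant and none fell, a share near the 17.3 and 14.5% called among all genes. Psen2, a catalytic subunit of γ-secretase, was at 1.44 to 3.66 FPKM in wild-type and higher in every mutant library (differences 1.11 ± 0.22, adjusted p = 0.0108, and 0.94 ± 0.22, 0.0208). Mfng, a Fringe glycosyltransferase that alters ligand preference, rose by 0.85 ± 0.25 (0.0469) and 0.83 ± 0.23 (0.0408). Lfng, the Fringe enzyme best known in DN thymocytes, was at most 0.158 FPKM in wild-type and 0.931 in Bcl11bm/m, and reached 5.66 FPKM in cKO 3 with at least 0.918 in the others. It did not pass the filter. The subunits Ncstn, Aph1a and Psenen, and the proteases Adam10 and Adam17, were not called in either comparison.

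Of the 8 coactivators 2 were called in Bcl11bm/m and 1 in Bcl11bfl/fl:Cd4-Cre, and of 10 corepressors 2 in each, where 17.3% and 14.5% of all genes were called. The Mastermind genes Maml2 and Maml3 rose in Bcl11bm/m, by 1.26 ± 0.19 (adjusted p = 0.00312) and 0.85 ± 0.23 (0.0368), and Maml3 rose in Bcl11bfl/fl:Cd4-Cre by 0.73 ± 0.22 (0.049). The more abundant Maml1, at group means of 23.1 to 25.0 FPKM, was not called (0.13 ± 0.16, adjusted p = 0.66, and 0.07 ± 0.15, 0.78). Among the corepressors Tle3, of the Groucho family, rose in Bcl11bm/m by 0.74 ± 0.15 (0.011) and in Bcl11bfl/fl:Cd4-Cre by 0.84 ± 0.22 (0.0319), whereas its relative Tle1 fell in Bcl11bm/m by 1.01 ± 0.20 (0.00993) and was also lower there than in the conditional mutant (-1.24 ± 0.31, 0.0492). Hdac2, a histone deacetylase, fell in Bcl11bfl/fl:Cd4-Cre by 0.52 ± 0.15 (0.045), and Cir1, which bridges RBPJ to corepressors, in Bcl11bm/m exceeded its level in Bcl11bfl/fl:Cd4-Cre by 0.59 ± 0.11 (0.0211).

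Of 11 tested genes of receptor turnover and inhibition, 2 were called in Bcl11bm/m and 1 in Bcl11bfl/fl:Cd4-Cre, shares close to or under those of all genes. Numb, an adaptor that opposes Notch, rose in Bcl11bm/m by 0.78 ± 0.22 (adjusted p = 0.0414), and so did Dtx3, a Deltex relative of Dtx1 (0.71 ± 0.18, 0.0303). Fbxw7, a ubiquitin ligase subunit that marks the Notch intracellular domain for degradation, fell in Bcl11bfl/fl:Cd4-Cre by 0.67 ± 0.19 (0.0398). Dtx2 and the ligase Mib2 were lower in HM than in cKO libraries, with differences of -0.47 ± 0.11 (0.041) and -0.79 ± 0.17 (0.0298).

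**Figure D4:**
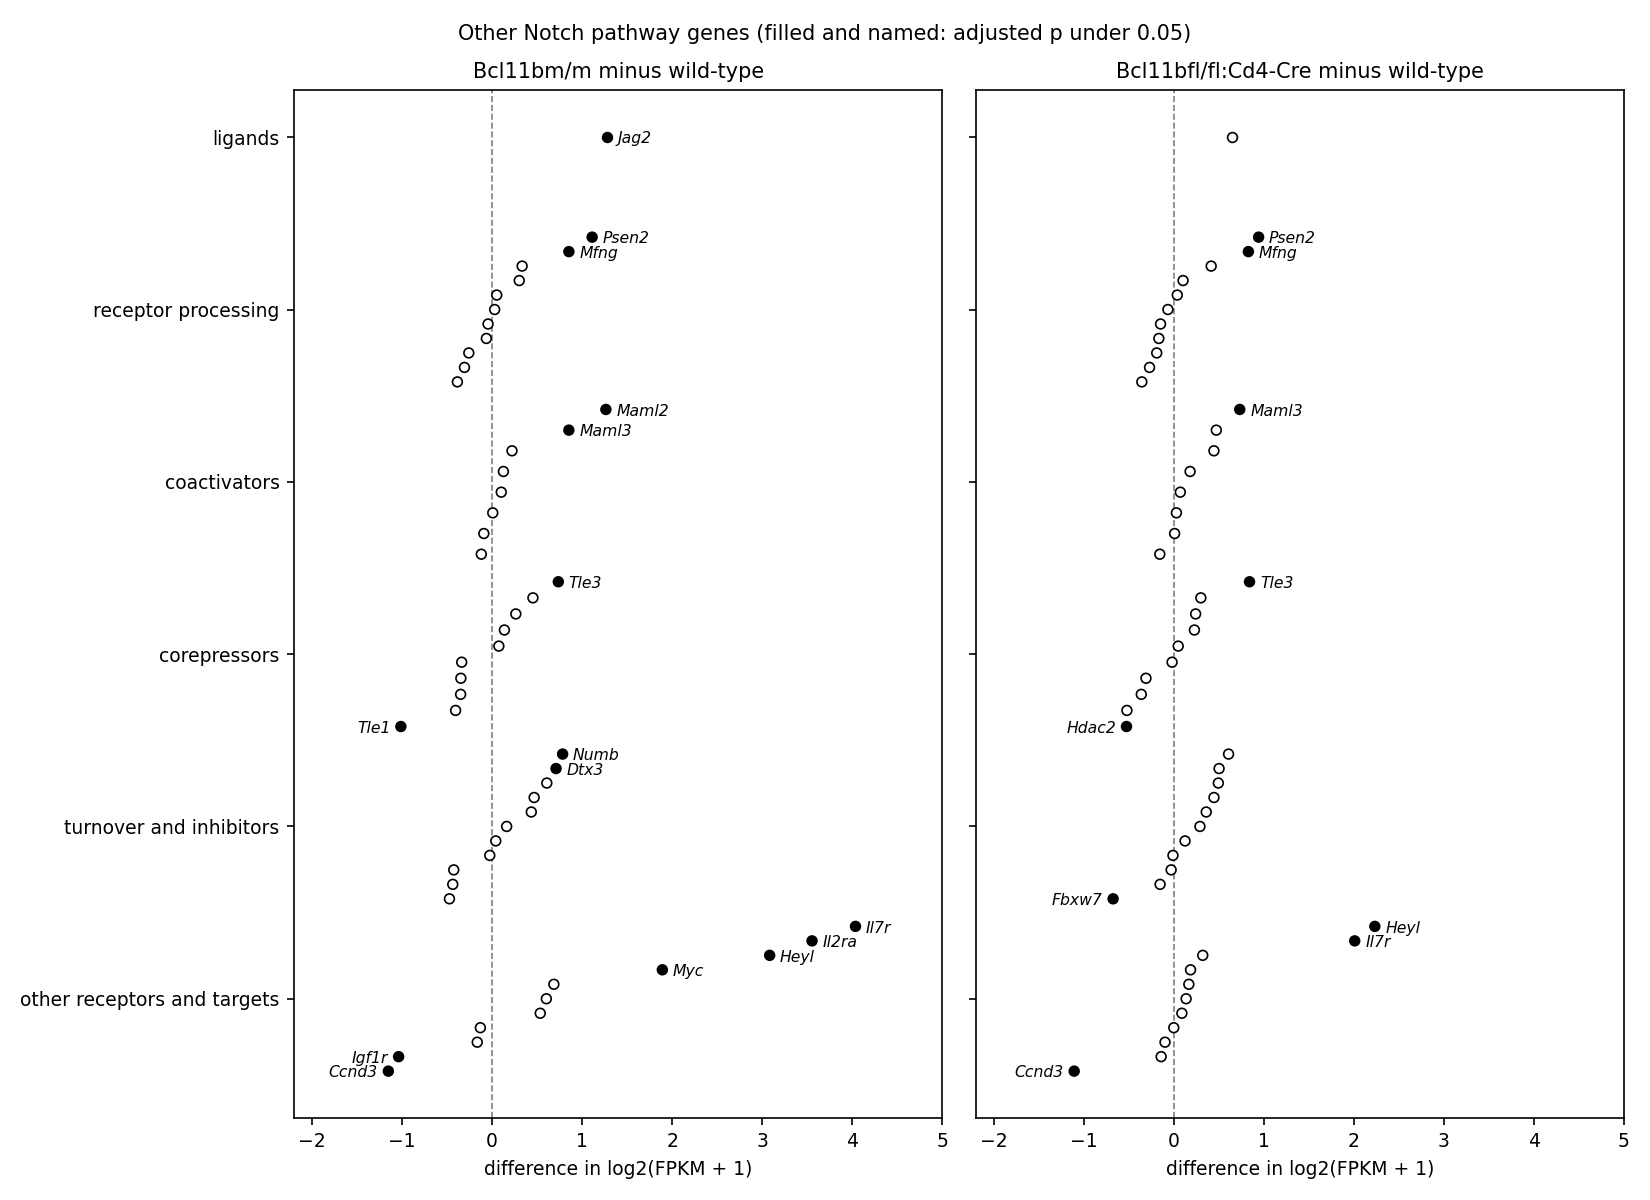
Differences in log2(FPKM + 1) from wild-type on the horizontal axis for 52 tested genes of 6 Notch pathway lists, each point a gene, with filled and named points for an adjusted p under 0.05. The filled points are 12 to the right and 3 to the left of 0 for Bcl11bm/m, and 6 and 3 for Bcl11bfl/fl:Cd4-Cre.

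The list of other receptors and targets held the largest differences. Heyl, a repressor related to Hes1, was at 0.0995, 0.485, 0.232, 0.113 and 0.114 FPKM in WT 1 to 5, at 12.4, 9.12 and 6.76 in HM 1 to 3, and at 4.79, 1.99, 4.14 and 10.4 in cKO 1 to 4. It was higher in every mutant library than in wild-type (3.08 ± 0.19, adjusted p = 3.12e-05, and 2.23 ± 0.32, 0.00433). Il7r, the IL-7 receptor chain of DN and mature thymocytes, was at most 0.0885 FPKM in wild-type, 12.2 to 25.8 in Bcl11bm/m and 1.45 to 8.96 in Bcl11bfl/fl:Cd4-Cre (adjusted p = 1.52e-05 and 0.00857). Both Heyl and Il7r entered the test through the mutant libraries, so their calls were close to fixed. Hes5, Hey1 and Hey2, further genes of the Hes and Hey family, stayed at group means of at most 0.821 FPKM and were not tested.

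Il2ra and Myc differed between the mutants, for which Hes1 and Dtx1 were not called. Il2ra, the IL-2 receptor α chain that marks DN2 and DN3 cells, was at 2.68 to 5.25 FPKM in wild-type, 117, 38.7 and 33.5 in HM 1 to 3, and 5.82, 2.87, 2.19 and 8.18 in cKO 1 to 4. It rose in Bcl11bm/m (3.55 ± 0.39, adjusted p = 7.27e-04), was not called in Bcl11bfl/fl:Cd4-Cre (0.19 ± 0.31, 0.723), and differed between the mutants (3.37 ± 0.52, 0.0121). Myc, a growth-promoting factor downstream of NOTCH1, was at 7.14 to 11.3 FPKM in wild-type, 30.6 to 54.4 in Bcl11bm/m and 7.04 to 14.4 in Bcl11bfl/fl:Cd4-Cre, with a difference between the mutants of 1.72 ± 0.28 (0.0138). Lef1 was likewise higher in HM than in cKO libraries (0.67 ± 0.11, 0.0161).

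Igf1r and Ccnd3 of the same list fell. Igf1r, a growth factor receptor, was lower in Bcl11bm/m than in wild-type (-1.04 ± 0.22, adjusted p = 0.0132) and than in Bcl11bfl/fl:Cd4-Cre (-1.13 ± 0.23, 0.0252). Ccnd3, the D-type cyclin of proliferating thymocytes, was at 299 to 637 FPKM in wild-type, 201 to 251 in Bcl11bm/m and 182 to 290.3 in Bcl11bfl/fl:Cd4-Cre, and fell in both (by 1.15 ± 0.25, 0.015, and 1.11 ± 0.25, 0.0176). Tcf7, Gata3, Hes6 and Trib2 were not called in any comparison.

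Among listed markers of the DN2 and DN3 stages, Il2ra and Cd44 were higher in Bcl11bm/m, and Sox13 was not called there (0.06, limma adjusted p = 0.781). The summed level of 8 listed DN2 and DN3 markers was 5.43 to 9.21 FPKM in wild-type, 156, 69.8 and 62.4 in HM 1 to 3, and 32.4, 19.1, 39.0 and 43.8 in cKO 1 to 4. Of 6 tested, 5 were called higher in Bcl11bm/m (Il2ra, Kit, Cd44, Lyl1 and Fcgr3) and 2 in Bcl11bfl/fl:Cd4-Cre (Cd44 and Lyl1), against 9.92% and 4.65% of all genes. Of the 6, only Il2ra and Cd44 averaged over 1 FPKM in wild-type, and the others entered the test through their mutant levels, so these counts support nothing by themselves. Erg and Hhex of the same list were at most 0.435 FPKM in any library. Lyl1 averaged 0.739 FPKM in wild-type, 11.2 in Bcl11bm/m and 14.0 in Bcl11bfl/fl:Cd4-Cre, and Kit averaged 0.399, 3.01 and 0.516. HM 1 was the highest of its group in this sum and in Notch1, Hes1 and Dtx1, as it was in the summed level of every other marker list except that of β-selected and immature single-positive cells. In each of the 3 libraries Il2ra, itself a Notch target, was the largest item of the sum.

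The summed level of 9 DP markers was 4954 to 6711 FPKM in wild-type, 3657 to 4236 in Bcl11bm/m and 3391 to 5368 in Bcl11bfl/fl:Cd4-Cre. Of the 9, 5 were called lower in Bcl11bm/m (Cd4, Cd8b1, Rag2, Cd24a and Arpp21), against 7.39% of all genes. In Bcl11bfl/fl:Cd4-Cre 2 were called lower (Cd24a and Themis), against 9.86%. Cd24a, the gene of the gating marker CD24, averaged 182, 79.8 and 80.2 FPKM in the 3 groups (limma adjusted p = 0.00422 and 0.00517 against wild-type). Themis, on the same list, was higher in every Bcl11bm/m library than in wild-type, without a call (0.31, adjusted p = 0.135). HM 1 and cKO 1 had DP sums of 4236 and 4234 FPKM, with Ptcra at 12.2 and 67.0 FPKM. In the Bcl11bfl/fl:Cd4-Cre group, cKO 2 had the highest DP sum, with Ptcra below every wild-type library. The lowest DP sum and the lowest Ptcra of that group (8.97 FPKM) were both in cKO 3. The relation of Ptcra to the DP sum was not tested. Post-selection markers summed to 166 to 299 FPKM in wild-type, 380.4 to 496 in Bcl11bm/m and 187 to 416 in Bcl11bfl/fl:Cd4-Cre, with cKO 3 the highest of the last group. Markers of β-selected and immature single-positive cells summed to 596 to 616, 481 to 531 and 269 to 481 FPKM. Of 6 tested, Cdc6 and Ccnb1 were called lower and Tfrc higher in Bcl11bm/m, against 7.39% of all genes lower and 9.92% higher. In Bcl11bfl/fl:Cd4-Cre, Cd28, Mki67, Cdc6 and Ccnb1 were called lower, against 9.86% of all genes.

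Myeloid markers, a check on other cells in the gate, summed to 11.6 to 16.9 FPKM in wild-type, 93.6, 31.8 and 24.03 in HM 1 to 3, and 16.1, 4.29, 47.8 and 13.4 in cKO 1 to 4. The sum of cKO 3 was nearly all Fcer1g (42.2 FPKM), which was at 40.2 FPKM in HM 1. Of 6 tested, Fcer1g and Mpeg1 were called higher in Bcl11bm/m, and Lyz2 and Mpeg1 lower in Bcl11bfl/fl:Cd4-Cre, against 9.92% of all genes called higher in the first and 9.86% lower in the second. Mpeg1, at a wild-type mean of 0.712 FPKM, entered the test through its Bcl11bm/m level. Itgam lay the other way in Bcl11bm/m, without a call (-0.97, adjusted p = 0.14). The defining marker Lyz2 was at 37.7, 10.9 and 5.53 FPKM in HM 1 to 3, against 2.19 to 7.05 in wild-type, so HM 3 lay inside that range. Lyz2 was not called in Bcl11bm/m (1.25, limma adjusted p = 0.17). Csf1r was at most 1.49 FPKM. HM 1 thus had the highest myeloid sum of the 12 libraries, the highest Hes1 and Il2ra, and the highest Dtx1 of its group. Without HM 1 the Hes1, Dtx1 and Ptcra differences of Bcl11bm/m were still called, and that of Notch1 was not (1.17, adjusted p = 0.12). Markers of B cells summed to 13.7 to 21.6 FPKM in wild-type, 37.3, 9.04 and 8.67 in HM 1 to 3 and 11.8 to 28.3 in Bcl11bfl/fl:Cd4-Cre, mostly Cd79b, with Pax5 at most 0.562. HM 1 stood apart here too, with Cd79a at 10.7 FPKM against at most 0.446 in wild-type. Of 2 tested, Cd79a was called higher in Bcl11bfl/fl:Cd4-Cre (1.02, limma adjusted p = 0.0237), against 4.65% of all genes. Cd79a had entered the test through the mutants, and neither B cell marker was called in Bcl11bm/m. Markers of thymic epithelium and stroma summed to 3.55 to 5.41 FPKM in wild-type, 1.88 to 3.22 in Bcl11bm/m and 1.62 to 2.72 in Bcl11bfl/fl:Cd4-Cre. Of 2 tested, Epcam was called lower in both mutants (-1.61, limma adjusted p = 9.2e-04, and -1.18, 0.00814), against 7.39% and 9.86% of all genes. Pdgfra and Col3a1 were at 0 in wild-type. Red blood cell markers summed to 2.36 to 33.9, 10.6 to 29.7 and 0.829 to 5.06 FPKM in the same order. None of 3 tested was called against wild-type, where 17.3% and 14.5% of all genes were called in either direction. Endothelial markers, nearly all Pecam1, which T cells also express, summed to 37.1 to 63.5, 143 to 162 and 81.0 to 127 FPKM. The part of any of these cell types in the results was not tested.

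The genes whose profile lay nearest to each called member were found over the 12 libraries, by the mean absolute log2 difference between profiles centred on their own mean, among 10595 tested genes without short RNAs. Nearest to Hes1 were Heyl (0.36), 2900026A02Rik (0.41) and Mcart6 (0.42). Nearest to Dtx1 were Heyl (0.59), Tuba8 (0.63) and Il12rb2 (0.64). Heyl, a member of the pathway lists, thus came first for both targets, and the Dtx1 neighbours were less close. Hes1 and its 3 neighbours all averaged under 1 FPKM in wild-type and passed the filter through the mutants. Their likeness was therefore partly built in by the filter.

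Nearest to Notch1 were Nwd1 (0.22), Nln (0.23) and Capn5 (0.24). Of these, Capn5, a calpain protease, was called in Bcl11bm/m (1.34, adjusted p = 0.0196), with means of 6.46, 17.3 and 10.9 FPKM in wild-type, Bcl11bm/m and Bcl11bfl/fl:Cd4-Cre. Nearest to Ptcra were P2rx1 (0.29), Ccdc153 (0.38) and Ldlrad3 (0.39). P2rx1, an ATP-gated channel, was at 15.8 to 38.6 FPKM in wild-type, 11.1, 2.92 and 2.74 in HM 1 to 3, and 28.2, 15.2, 4.70 and 32.5 in cKO 1 to 4, and it shared with Ptcra the low level in cKO 3. These distances describe likeness over 12 libraries of 3 groups and carry no test.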

How the data were processed

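RNA-seq of sorted CD24 high TCRβ low DP thymocytes was used from 5 wild-type, 3 Bcl11bm/m and 4 Bcl11bfl/fl:Cd4-Cre libraries. The authors mapped reads with TopHat2 and deposited gene-level FPKM values from Cufflinks. The submitters' processing notes give TopHat2 2.8.0 and Cufflinks 2.1.1 with build mm9, and no scaling between libraries is stated. The study's methods describe a strand-specific library kit, while the labels' extraction text describes a SMARTer kit and sorted DN NKT cells. The kit is therefore uncertain, and the cells are called DP thymocytes from the labels' source names and descriptions. Every column of sample values in the table was used.

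Genes whose mean over all 12 libraries reached 1 FPKM (10780) were taken as log2(FPKM + 1) and tested with limma 3.58.1 in R 4.3.3 (lmFit, eBayes with a trend), two-sided, on the 2 groups compared, with Benjamini-Hochberg adjustment over all genes. The test was tested on simulated data with known changes. Depth was estimated in Python 3.11.15 (pandas 2.3.3, numpy 2.4.6, scipy 1.17.1, matplotlib 3.10.9) from 3919 genes. A step of whole fragments placed 56.4 to 68.3% of low values within 0.1 of a whole number, against 20% if spread evenly, so counts were not recovered. Estimated fragments, floors and intervals cover counting error only. Gene positions are from GENCODE vM1 (NCBIM37, equal to mm9), and promoter windows are from RefSeq on another build. Pairwise correlations of libraries within groups were 0.9 to 0.941, and no columns were identical.

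Members and gene lists were chosen with earlier results of these data known. Named genes were all members, Bcl11b, the ligands, list genes called in a comparison (up to 4 per list and comparison by size) and the 3 nearest profiles of each called member. Lfng, Maml1, Sox13, Blk, markers of other cells and uncalled list genes were named after their values were seen. Some list genes are not reported here and were left out of the counts and sums. Alternatives were quantile or median-ratio scaling, no filter or one at 5 FPKM, a pseudocount of 0.1, library quality weights, 1 fit of all 3 groups, a replicate block and leaving out each library.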

Additional observations from a re-analysis of the deposited data

Results flagged for a closer look

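Notch2 in the Bcl11bfl/fl:Cd4-Cre group had 1 library apart from the others: cKO 3 was at 6.11 FPKM, while the other three were at 4.84 to 5.04 FPKM. Its gap to the nearest library was more of the group's range than Dixon's 95% value allows. The 8 genes in the WT and cKO groups gave 16 such looks, in which chance flags 0.8 on average, so 1 is near that number.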

How the results depend on the processing

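Under the alternatives other than the replicate block, the Bcl11bm/m differences of Hes1 (2.87 to 5.87), Dtx1 (2.77 to 3.80) and Ptcra (-2.55 to -2.03) were called in 15 of 15. In all of these but the fit with no filter, Hes1 entered through its mutant levels, so its calls were close to fixed. Notch1 was called in 9 of 15, and of the Bcl11bfl/fl:Cd4-Cre differences Hes1 was called in 13 and Dtx1 in 14 of 16. For Bcl11bm/m against wild-type 1866 genes were called, and 1189 with a mean of at least 5 FPKM (fewer genes tested), 3604 with library quality weights and 1021 to 2349 on leaving out a library, with 1225 without HM 1 and 1021 without HM 2. Members called were 4, and 5 (Notch3 added) under quantile normalization and with weights, 3 with no filter (Notch1 lost), and 3 to 4 on leaving out a library. For Bcl11bfl/fl:Cd4-Cre against wild-type 1564 genes were called, 3176 with weights and 700 to 2678 on leaving out a library: 2678 without WT 1, 938 without WT 2, 865 without WT 5, and 700, 778 and 773 without cKO 1, cKO 3 and cKO 4. Members called were 2, and 4 under median-ratio scaling, quantile normalization, the fit of all 3 groups (each adding Notch1 and Rbpj) and weights (adding Nrarp and Rbpj). They were 0 to 3 on leaving out a library, with 0 without cKO 1, 1 without cKO 4 and 3 without WT 1. Between the mutants 1102 genes were called, 656 with a mean of at least 5 FPKM, 2173 with weights and 313 to 1121 on leaving out a library: 327 and 313 without HM 2 and HM 3, and 392, 649 and 711 without cKO 1, cKO 2 and cKO 4. Members called were 0, and 1 (Ptcra) in the fit of all 3 groups (adjusted p = 0.0388) and with weights (0.0207), and 0 to 2 on leaving out a library, with 2 (Notch3 and Ptcra) without cKO 3. Except where fewer genes or libraries entered, the cause was not tested.

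Signs turned only for differences that were not called. For Bcl11bm/m against wild-type, Nrarp was -0.11 under quantile normalization, and -0.07, -0.01 and -0.28 without WT 1, WT 3 and HM 3 (-0.28 to 0.31 over the left-out libraries). For Bcl11bfl/fl:Cd4-Cre, Ptcra was 0.069 with weights and 0.36 without cKO 3 (-0.56 to 0.36). Between the mutants, Notch1 was -0.016 with weights and -0.034 without cKO 3 (-0.034 to 0.39), and Dtx1 was -0.30 with weights, -0.03 without HM 1 and -0.10 without cKO 3 (-0.10 to 0.97). The replicate block left 283, 456 and 30 genes called in the 3 comparisons and 0 members in each. With it the Bcl11bm/m differences were 3.34 for Hes1 (limma adjusted p = 0.0559), 2.88 for Dtx1 (0.0626), -2.13 for Ptcra (0.0719) and 0.97 for Notch1 (0.234). Those of Bcl11bfl/fl:Cd4-Cre were 2.36 for Hes1 (0.0694) and 2.72 for Dtx1 (0.0823). Same-numbered libraries deviated together with r from -0.21 to 0.15, which does not show pairing and cannot exclude it. The share of FPKM in short RNAs was lowest in replicate 3 of each group, at 7.02% in WT 3, 7.82% in HM 3 and 7.1% in cKO 3. Replicates 1 and 2 changed order between groups in this share. Whether the numbers pair the libraries is not stated and was not settled. Few Hes1 fragments were seen in wild-type and in cKO 2, so counting error limits its values there.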
